A study of Mus musculus with 12 samples.

Results

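The genes described here are 36 genes of T cells and natural killer (NK) cells, measured in total colon RNA. They were found by gene name in a table of 54532 genes, all 36 were present, and all 36 passed the filter on low values that left 24102 genes for testing (3 or more libraries with an FPKM of 0.1 or above). By role, 4 encode CD3 chains, 4 encode constant parts of the T cell receptor, 3 encode coreceptors, 6 encode costimulatory or adhesion receptors, 3 act in receptor signalling, 4 belong to cytotoxic granules, 3 are NK receptors, 3 are transcription factors of T cell lineages, 2 are chains of the interleukin-2 (IL-2) receptor and 4 mark activation, residence or chemokine production. The 36 genes lie on 14 chromosomes, and 34 of them have the same coordinates in the deposited table and in GENCODE M21, both on GRCm38.

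T cells recognise antigen through a receptor made of alpha and beta, or gamma and delta, chains, which signals through the CD3 chains and the kinases Lck and Zap70. In the mouse colon, CD8 and gamma delta T cells with granzymes lie mostly within the epithelium, CD4 T cells lie in the lamina propria, and regulatory T cells, defined by the transcription factor Foxp3, restrain inflammation there. NK cells carry no antigen receptor of this kind and kill through perforin and granzymes.

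The study asked how STING in myeloid cells acts on colitis. RNA came from the colon of 12 mice, 1 library per mouse, in 4 groups of 3. The controls, labelled WT, were Tmem173fl/fl mice, whose Tmem173 (which encodes STING) is flanked by loxP sites and which have no Cre. The mice labelled CRE, called Tmem173iΔmye, carry in addition Lyz2-CreERT2, a recombinase that tamoxifen turns on in cells that use the Lyz2 promoter, such as macrophages, neutrophils and part of the dendritic cells, so T and NK cells were not themselves targeted. All 4 groups were young adult mice on the C57BL/6N background and all had 5 injections of tamoxifen. The colitic groups received dextran sulfate sodium (DSS), a polymer toxic to the epithelium of the colon, in their water for 7 days and then plain water, and the untreated groups had water throughout. The replicates of a group are 1, 2 and 3, except in colitic Tmem173iΔmye mice, where they are 1, 2 and 5.

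Library totals ran from 13823237 to 18718915 counts. Tmem173 stood at 42.4, 44.0 and 37.7 CPM (counts scaled by library size) in colitic Tmem173fl/fl libraries. In colitic Tmem173iΔmye libraries it was at 47.8, 23.8 and 31.1 CPM. The log2 difference was -0.28 (SE 0.26, edgeR adjusted p 0.602), so a loss of the targeted gene was not detectable in these whole colon libraries. Counts per gene also do not show the loss of single floxed exons. The paper itself reported that myeloid deletion lowered Tmem173 mRNA in inflamed colon. It also reported loss of STING staining in CD11b+ cells. Xist, which is transcribed from the inactive X chromosome of females, was abundant in replicate 3 of both untreated groups and in replicate 5 of the colitic Tmem173iΔmye group and near 0 in the other 9 libraries, so sex was mixed within 3 of the 4 groups. Replicate 5 of the colitic Tmem173iΔmye group held the lowest summed CD3 chain level of all libraries, 3.74 FPKM (fragments scaled by gene length and library size). Replicate 1 of that group held the highest level of the leukocyte gene Ptprc (CD45) of all libraries. It was at 281 CPM, beside 91.0 and 84.3 CPM in replicates 2 and 5. Calls that change without replicate 1 or replicate 5 of that group are given with and without that library.

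In untreated Tmem173fl/fl colon the 36 genes covered a wide range of levels per length. The highest means were those of Ccl5, a chemokine that draws T cells, at 41.9 ± 1.43 FPKM (SD, n = 3), and of Gzmb, the granule protease granzyme B, at 33.4 ± 6.18 FPKM. Gzma, the related granzyme A, followed with 17.6 ± 2.28 FPKM, and its libraries overlapped those of Trbc2, a T cell receptor beta constant gene, at 16.4 ± 2.38 FPKM. Nkg7, a membrane protein of cytotoxic granules, was at 14.2 ± 1.53 FPKM, below Gzma in each library. The CD3 chains Cd3d, Cd3e and Cd3g lay close together at 3.29 ± 0.554, 3.60 ± 0.537 and 3.56 ± 0.508 FPKM, differences within the spread of the libraries. The lowest were Foxp3 at 0.0735 ± 0.0389 FPKM and Ncr1, the NK receptor NKp46, at 0.204 ± 0.0406 FPKM. Foxp3 rested on 6, 2 and 5 counts in the 3 libraries and Ncr1 on 5, 5 and 4 counts, so both are imprecise in untreated colon.

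DSS colitis in Tmem173fl/fl mice moved T and NK cell genes in both directions, with 3 of 4 cytotoxic granule genes lower, Foxp3, Il2ra and Ctla4 among the genes that were higher, and no CD3 chain called. Gzmb, Gzma, Nkg7 and Ccl5 fell, and Foxp3, Il2ra, Trdc, Gata3 and Ctla4 rose. These 9 of 36 genes (25%) were called by edgeR's quasi-likelihood test, which asked for an adjusted p under 0.05 and a log2 difference of 1 or more in size, beside 22.5% of all 24102 genes, so the share is close to the background. On GRCm38 the called genes are Gzmb at chr14:56258838-56262260, Gzma at chr13:113093825-113100981, Nkg7 at chr7:43437073-43438249, Ccl5 at chr11:83525778-83530518, Foxp3 at chrX:7579676-7595243, Il2ra at chr2:11642807-11693193, Trdc at chr14:54142851-54148868, Gata3 at chr2:9857078-9890034 and Ctla4 at chr1:60887000-60915832. By direction, 5 of 36 were called higher, beside 14.9% of all genes, and 4 lower, beside 7.61%. At an unadjusted p under 0.05 the count was 15, beside 44.5% of all genes. The median log2 difference of the 36 genes was -0.06, beside 0.03 over all genes, and it moved from -0.56 without colitic replicate 2 to 0.18 without colitic replicate 3. In bulk RNA, fewer cells of a type and less RNA per cell cannot be told apart, and this holds for each difference that follows.

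**Figure D1:**
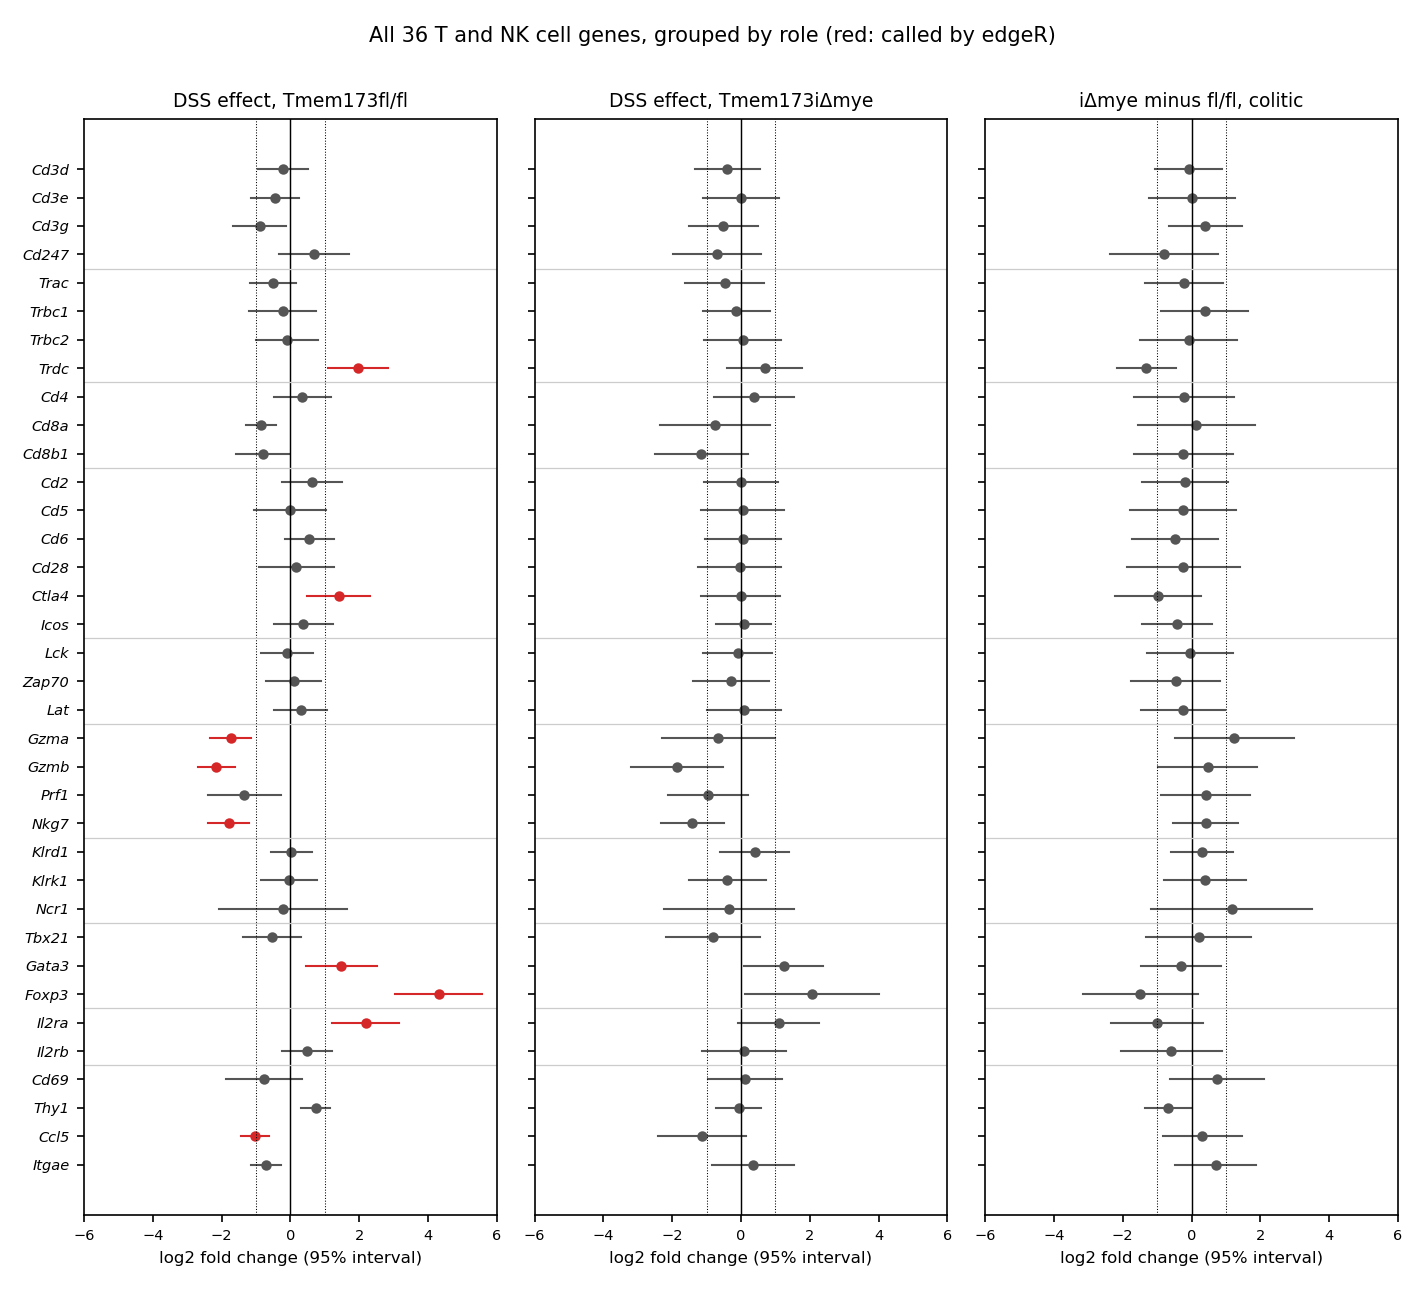
Log2 fold change with its 95% interval from edgeR for each of the 36 genes, grouped by role, for DSS in Tmem173fl/fl mice (left), DSS in Tmem173iΔmye mice (middle) and colitic Tmem173iΔmye against colitic Tmem173fl/fl mice (right). Red marks called genes (adjusted p under 0.05, log2 fold change of 1 or more in size), which are 9 in the left panel and 0 in the others, and dotted lines mark the fold limit.

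Of the 4 cytotoxic granule genes, 3 fell and the last, Prf1, had a difference of the same sign. The level of Gzmb was 59.9, 43.8 and 43.8 CPM in replicates 1 to 3 of untreated Tmem173fl/fl mice and 9.37, 14.3 and 7.83 CPM in colitic ones. Each colitic library lay far below each untreated one, a log2 difference of -2.15 (SE 0.24, edgeR adjusted p 0.000101), or 4.43-fold lower. The level of Gzma went from 16.97, 16.8 and 20.8 CPM to 3.79, 7.34 and 4.36 CPM. Again the groups did not overlap, with a difference of -1.74 (SE 0.27, edgeR adjusted p 0.000763). Nkg7 was at 14.7, 13.4 and 11.7 CPM without and 2.76, 5.02 and 3.13 CPM with DSS. All 3 colitic libraries were below the untreated ones, with a difference of -1.79 (SE 0.27, edgeR adjusted p 0.000595). For Prf1, which encodes the pore protein perforin, the values were 5.15, 4.47 and 1.69 CPM and 1.08, 2.13 and 0.953 CPM. Untreated replicate 3 lay below colitic replicate 2, and the difference of -1.34 (SE 0.47) narrowly missed the threshold (edgeR adjusted p 0.0515). Without untreated replicate 3 it was -1.69 (edgeR adjusted p 0.0167) and without colitic replicate 2 it was -1.82 (edgeR adjusted p 0.0187), and both then passed. The 4 granule genes together had a median log2 difference of -1.76. Reads of granzymes can be shared among near-identical family members, and how such reads were counted is not given in the sources used here.

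The upstream sequences of these 4 granule genes are shown because 3 of them fell with DSS. RefSeq (GRCm38.p6) gave a transcription start for 20 of the 36 genes, and the 250 bases before the start nearest to the deposited gene start were searched on both strands for 3 short motifs, chosen after the calls were known: TGTGGT, the core bound by RUNX factors, TGANTCA, bound by AP-1, and TCACACC, bound by T-box factors. The sequences are written 5′ to 3′ on the strand of the gene without bases inside the deposited gene, and capitals mark matches, on either strand, to any of the 3 motifs. Gzma is shown at chr13:113100982-113101231 (minus strand), Gzmb at chr14:56262335-56262584 (minus strand), Prf1 at chr10:61297586-61297832 (plus strand) and Nkg7 at chr7:43436888-43437072 (plus strand).
Gzma: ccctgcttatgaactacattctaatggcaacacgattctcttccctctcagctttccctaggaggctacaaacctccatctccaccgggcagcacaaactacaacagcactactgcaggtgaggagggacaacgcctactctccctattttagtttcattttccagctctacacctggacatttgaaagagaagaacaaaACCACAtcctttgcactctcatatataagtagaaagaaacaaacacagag
Gzmb: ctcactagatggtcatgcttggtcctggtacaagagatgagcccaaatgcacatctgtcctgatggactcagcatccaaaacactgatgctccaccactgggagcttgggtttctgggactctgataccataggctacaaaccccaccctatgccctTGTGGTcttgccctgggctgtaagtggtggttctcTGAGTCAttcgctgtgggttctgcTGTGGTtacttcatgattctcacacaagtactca
Prf1: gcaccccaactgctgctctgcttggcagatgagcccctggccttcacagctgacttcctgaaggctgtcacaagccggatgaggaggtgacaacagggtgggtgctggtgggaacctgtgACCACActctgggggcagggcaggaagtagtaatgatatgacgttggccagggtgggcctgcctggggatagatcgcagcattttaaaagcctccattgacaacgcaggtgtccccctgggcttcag
Nkg7: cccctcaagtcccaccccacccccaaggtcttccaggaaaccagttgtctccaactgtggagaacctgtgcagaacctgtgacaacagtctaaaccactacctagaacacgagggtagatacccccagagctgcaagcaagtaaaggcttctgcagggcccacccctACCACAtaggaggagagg
The RUNX core was found in the window of all 4 granule genes, beginning 50 bases before the start in Gzma, 93 and 34 bases before it in Gzmb, 130 in Prf1 and 83 in Nkg7. In Gzmb an AP-1 motif began 58 bases before the start, between the pair of RUNX cores and overlapping neither. Nkg7 held a T-box motif 13 bases before its start, within the deposited gene and so not printed. Of the other 16 genes with a window, Lck, Ncr1 and Klrk1 held the RUNX core, and the 4 CD3 chains and the called genes Foxp3, Il2ra, Ctla4 and Gata3 held none of the 3 motifs. These distances run from the RefSeq start, which lies 74 bases before the deposited gene start in Gzmb, 3 bases after it in Prf1 and 65 bases after it in Nkg7. The starts used for Ctla4 and Gata3 lie 22025 and 11434 bases from the deposited gene starts. The called genes Ccl5 and Trdc had no window. Among all 32851 windows of the table, 14.0% held the RUNX core, 6.75% the AP-1 motif and 3.33% the T-box motif. Of the 20 windows of T and NK cell genes, 1 per gene, 7 held the RUNX core. A match describes the letters of the window only, and no binding was measured here.

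Foxp3, Il2ra and Ctla4, which regulatory T cells carry, rose with DSS. Activated T cells also carry Il2ra and Ctla4. The level of Foxp3 was 0.454, 0.135 and 0.313 CPM in untreated and 5.91, 8.66 and 2.59 CPM in colitic Tmem173fl/fl mice, from 6, 2 and 5 counts and 109, 183 and 38 counts. All colitic libraries lay above all untreated ones and replicate 3 was the lowest of them, with a log2 difference of 4.31 (SE 0.57, edgeR adjusted p 0.000287) whose 95% interval ran from 3.04 to 5.58. Foxp3 overlaps Flicr on its own strand and Ccdc22 on the other. The strand setting of the counting is not given in the sources used here and the kit that the labels name is not a directional one, so reads of overlapping genes cannot be told apart. This also holds for Itgae, which overlaps Haspin on the other strand. Ctla4, Il2ra and Gata3 overlap other annotated genes on their own strand, which no strand setting would separate. Gata3 also overlaps genes on the opposite strand. Il2ra, the alpha chain of the IL-2 receptor that regulatory and activated T cells carry, was at 2.73, 2.57 and 1.94 CPM and 11.97, 15.2 and 4.09 CPM. The groups did not overlap, with a difference of 2.19 (SE 0.44, edgeR adjusted p 0.00322). For Il2rb, the beta chain that NK and CD8 T cells also carry, the difference was 0.49 (edgeR adjusted p 0.275). Ctla4, an inhibitory receptor abundant on regulatory T cells, was at 7.95, 3.32 and 6.26 CPM and 14.0, 22.3 and 7.76 CPM. Colitic replicate 3 lay below untreated replicate 1, and the difference was 1.40 (SE 0.41, edgeR adjusted p 0.0223). Gata3, a factor of Th2 cells that regulatory T cells, innate lymphoid cells and other cells also use, was at 1.74, 0.812 and 1.38 CPM and 3.47, 5.21 and 1.70 CPM. Here too colitic replicate 3 fell within the untreated range, and the difference was 1.48 (SE 0.46, edgeR adjusted p 0.0305). The calls of Ctla4 and Gata3 were lost on leaving out single libraries, with limma and in the joint fit of all 12 libraries. For Ctla4 the difference was 1.11 without untreated replicate 2, 1.47 without untreated replicate 3 and 0.95 without colitic replicate 2 (edgeR adjusted p 0.0698, 0.0659 and 0.0741). For Gata3 it was 1.22 without untreated replicate 2, 1.53 without untreated replicate 3, 1.46 without colitic replicate 1 and 1.04 without colitic replicate 2 (edgeR adjusted p from 0.0674 to 0.127). Tbx21, the Th1 factor T-bet, was at 3.48, 3.38 and 1.94 CPM and 1.63, 2.70 and 1.36 CPM. These ranges overlapped, with a difference of -0.54 (edgeR adjusted p 0.302).

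**Figure D2:**
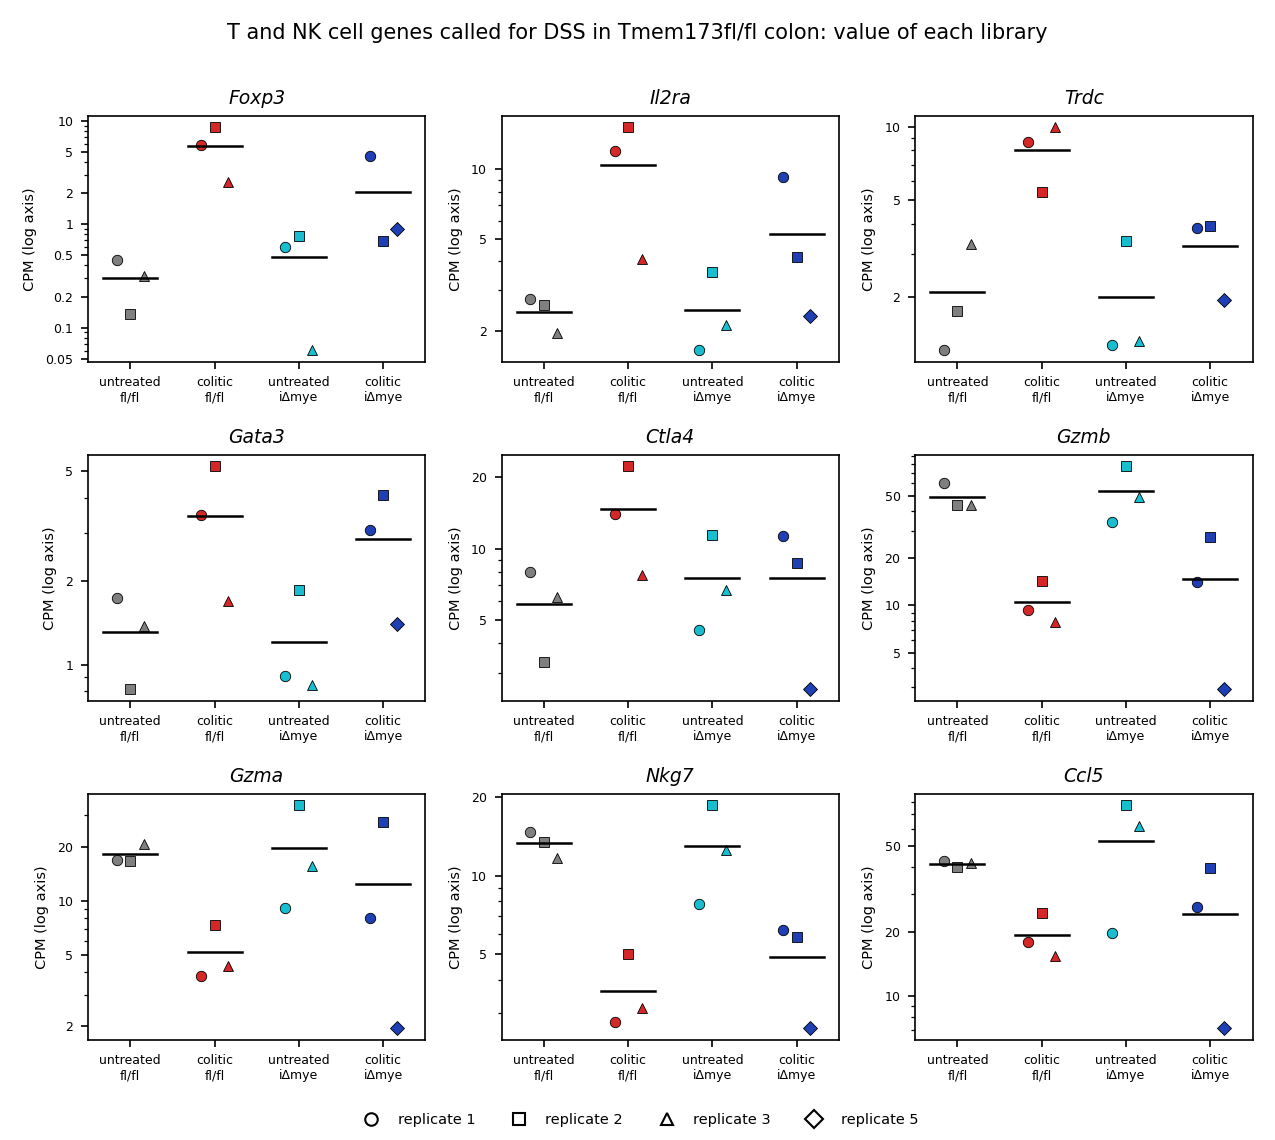
CPM (log axis) of each library, in the 4 groups, for the 9 T and NK cell genes that DSS moved past the threshold in Tmem173fl/fl mice. The symbol gives the replicate number and the line the mean of 3 libraries. In the granule genes Gzmb, Gzma and Nkg7 and in Ccl5 the colitic Tmem173fl/fl libraries sit below the untreated ones, in Foxp3, Il2ra and Trdc above them, and in Gata3 and Ctla4 the groups overlap.

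Of the 4 constant genes of the T cell receptor, Trdc was called. Trdc, the constant gene of the delta chain, was at 1.21, 1.76 and 3.32 CPM in untreated and 8.67, 5.40 and 9.94 CPM in colitic Tmem173fl/fl libraries, from 16, 26 and 53 counts and 160, 114 and 146 counts. Each colitic library exceeded each untreated one, with a log2 difference of 1.98 (SE 0.39, edgeR adjusted p 0.00317). Trdc overlaps Trdv5, a variable gene on the other strand. Trac, the constant gene of the alpha chain, was at 12.7, 9.68 and 10.3 CPM and 10.1, 7.39 and 4.22 CPM. The groups overlapped, with a difference of -0.51 (95% interval -1.18 to 0.16, edgeR adjusted p 0.219). The near-identical beta constant genes Trbc1 and Trbc2 differed by -0.23 and -0.09 (edgeR adjusted p 0.721 and 0.888). Within each library, Trdc made up 2.25, 4.21 and 7.25% of the summed FPKM of Trdc and Trac without DSS and 17.1, 15.02 and 36.3% with DSS. This share was thus higher in every colitic library, most of all in replicate 3.

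The CD3 chains, carried by all T cells, were not called. Cd3e was at 17.7, 14.1 and 13.4 CPM in untreated and 10.1, 15.4 and 5.86 CPM in colitic Tmem173fl/fl mice. Colitic replicate 2 lay within the untreated range and replicate 3 far below it, with a difference of -0.45 (95% interval -1.14 to 0.24, edgeR adjusted p 0.298). Cd3g was at 13.8, 10.4 and 11.6 CPM and 6.50, 8.76 and 2.93 CPM. Its groups did not overlap, and the difference of -0.89 missed the threshold (edgeR adjusted p 0.0685), but passed it without colitic replicate 2, at -1.28 (edgeR adjusted p 0.0130). Cd3d differed by -0.21 and Cd247, the zeta chain, by 0.69 (edgeR adjusted p 0.653 and 0.276). Cd247 overlaps Pou2f1 on the other strand. The summed CD3 level was 13.1, 10.5 and 10.004 FPKM without DSS and 8.02, 12.6 and 4.61 FPKM with DSS. Among colitic libraries replicate 2 was the highest and replicate 3 the lowest.

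No coreceptor gene was called. Cd8a, the alpha chain of CD8, was at 20.0, 26.1 and 19.0 CPM in untreated and 10.9, 13.2 and 10.2 CPM in colitic Tmem173fl/fl libraries. The groups did not overlap, and the difference of -0.85 (SE 0.19, edgeR adjusted p 0.00650) passed the p threshold but stayed under the fold limit. Cd8b1, the beta chain found on conventional CD8 T cells, was at 5.98, 9.48 and 5.20 CPM and 4.88, 4.02 and 2.25 CPM. All colitic values were below all untreated ones, with a difference of -0.81 (edgeR adjusted p 0.0921). Cd4, which macrophages and innate lymphoid cells can also express, was at 21.7, 15.2 and 20.4 CPM and 19.0, 38.8 and 11.6 CPM. The colitic values lay on both sides of the untreated ones, with a difference of 0.35 (edgeR adjusted p 0.503). Of the summed FPKM of Cd8a and Cd4, Cd8a took 50.6, 65.5 and 50.7% without DSS and 38.8, 27.4 and 49.4% with DSS. The share was lower in each colitic library, though replicate 3 came close to the untreated range.

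The remaining receptors and kinases were not called. Cd2, Cd6, Cd28 and Icos, which aid adhesion or costimulation, had differences of 0.62, 0.55, 0.17 and 0.38, and Cd5, an inhibitor of receptor signals, of -0.02 (edgeR adjusted p from 0.218 to 0.983). The kinases Lck and Zap70 and the adaptor Lat had differences of -0.09, 0.10 and 0.31 (edgeR adjusted p 0.873, 0.858 and 0.533). Among NK receptors, Klrd1 (CD94) and Klrk1 (NKG2D) had differences of 0.03 and -0.04, with 95% intervals within the fold limit (-0.56 to 0.62 and -0.84 to 0.76). Both are receptors that NK cells and part of the CD8 T cells carry. Ncr1 was at 0.379, 0.338 and 0.251 CPM without and 0.108, 0.568 and 0.0681 CPM with DSS, from 1 to 12 counts. The libraries overlapped widely, and the interval of -2.08 to 1.65 held both directions.

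Of the genes of activation and residence, Ccl5 was called. It was at 42.6, 39.7 and 41.5 CPM in untreated and 17.9, 24.3 and 15.4 CPM in colitic Tmem173fl/fl mice. The untreated libraries lay close together and all colitic ones were below them, with a difference of -1.03 (SE 0.18, edgeR adjusted p 0.00166). The value is near the fold limit, and without colitic replicate 3 it was -0.92 (edgeR adjusted p 0.00291) and no longer called. Macrophages also make Ccl5. Itgae (CD103), which holds T cells in the epithelium, had a difference of -0.70 (edgeR adjusted p 0.0187) and Thy1, which T cells share with stromal cells and neurons, of 0.73 (edgeR adjusted p 0.0122), both under the fold limit. Cd69, a marker of activation and residence, had a difference of -0.77 (edgeR adjusted p 0.260), which became -1.55 (edgeR adjusted p 0.0194) without colitic replicate 2. In all, the colitic and untreated groups did not overlap for 12 of the 36 genes, beside 49.3% of all genes.

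**Figure D3:**
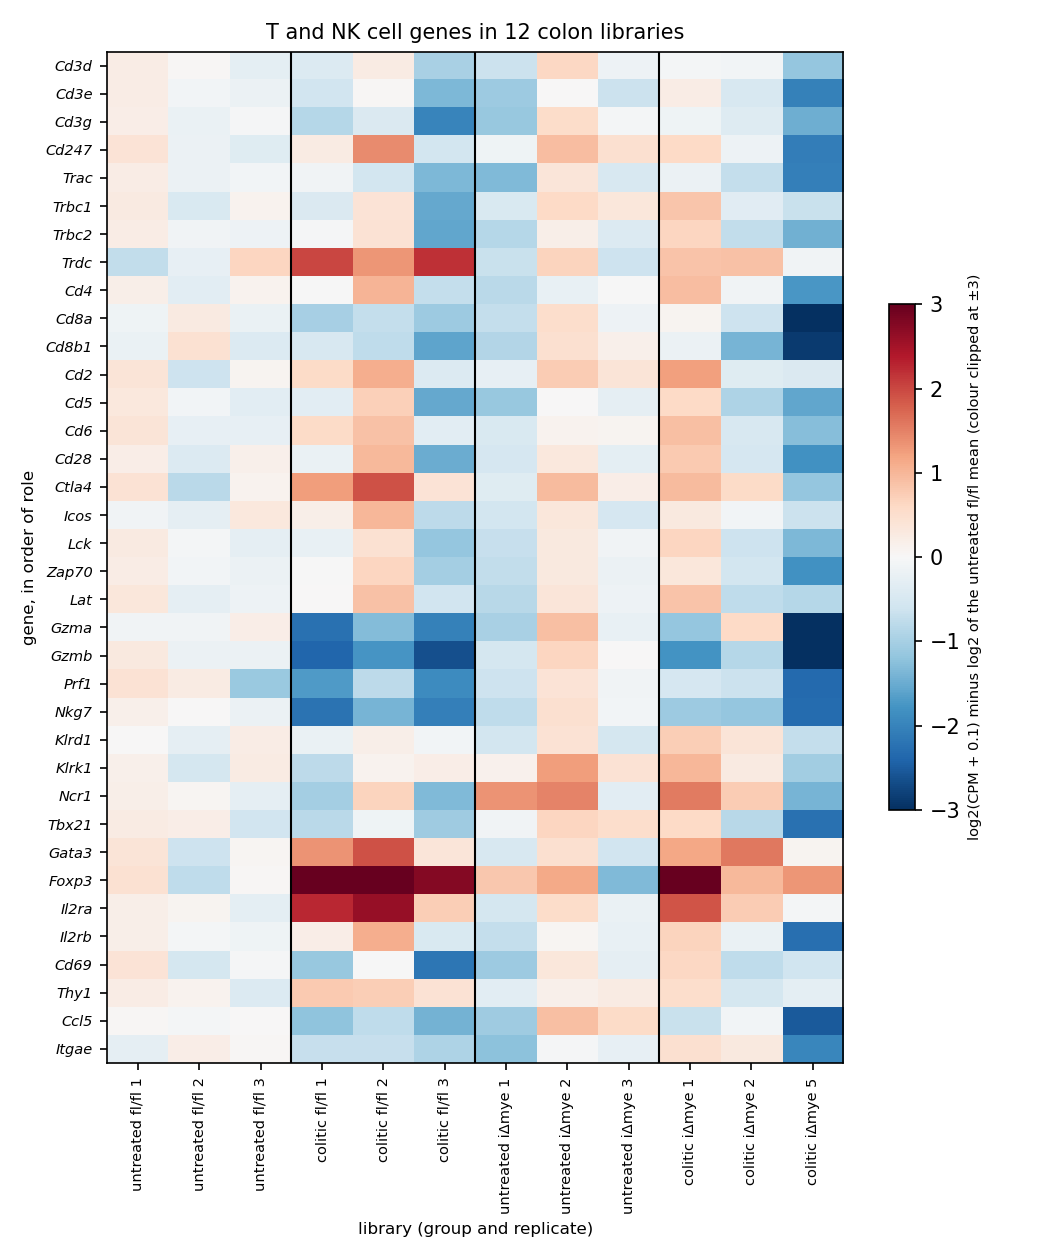
Each of the 36 genes (rows, ordered by role) in each of 12 libraries (columns), as log2(CPM + 0.1) minus the log2 of the untreated Tmem173fl/fl mean; red is higher, blue is lower and the colour is clipped at 3 on either side. The granule genes are blue in all 3 colitic Tmem173fl/fl libraries while Trdc, Foxp3 and Il2ra are red, and colitic Tmem173iΔmye replicate 5 is blue over most genes.

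Since libraries of a group differed in their CD3 level, each gene was also divided by the summed FPKM of the CD3 chains of its library. Gzmb stood at 3.09, 2.84 and 2.99 times the CD3 level without DSS and at 0.823, 0.795 and 1.2003 times with DSS in Tmem173fl/fl mice. The untreated values were within a narrow range and the colitic ones far below it. Nkg7 went from 1.19, 1.36 and 1.26 to 0.381, 0.437 and 0.754, and Gzma from 1.25, 1.55 and 2.02 to 0.475, 0.580 and 0.954. The ratio of Ctla4 to CD3 was 0.252, 0.132 and 0.263 without and 0.756, 0.760 and 0.733 with DSS. The overlap seen in CPM was thus absent, and the colitic libraries lay close together. The same was so for Gata3, with 0.0324, 0.0190 and 0.0339 and 0.110, 0.104 and 0.0942. Foxp3 went from 0.00843, 0.00316 and 0.00769 to 0.187, 0.173 and 0.143 and Il2ra from 0.0353, 0.0419 and 0.0333 to 0.264, 0.212 and 0.157. Of the 32 genes other than CD3 chains, 14 had ratios higher in every colitic library, beside 27.2% of all genes, and 3 (Gzma, Gzmb and Nkg7) had ratios lower in every colitic library, beside 4.44% of all genes. These ratios were chosen after the values were seen and were given no test, and the genes share the CD3 level as divisor.

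**Figure D4:**
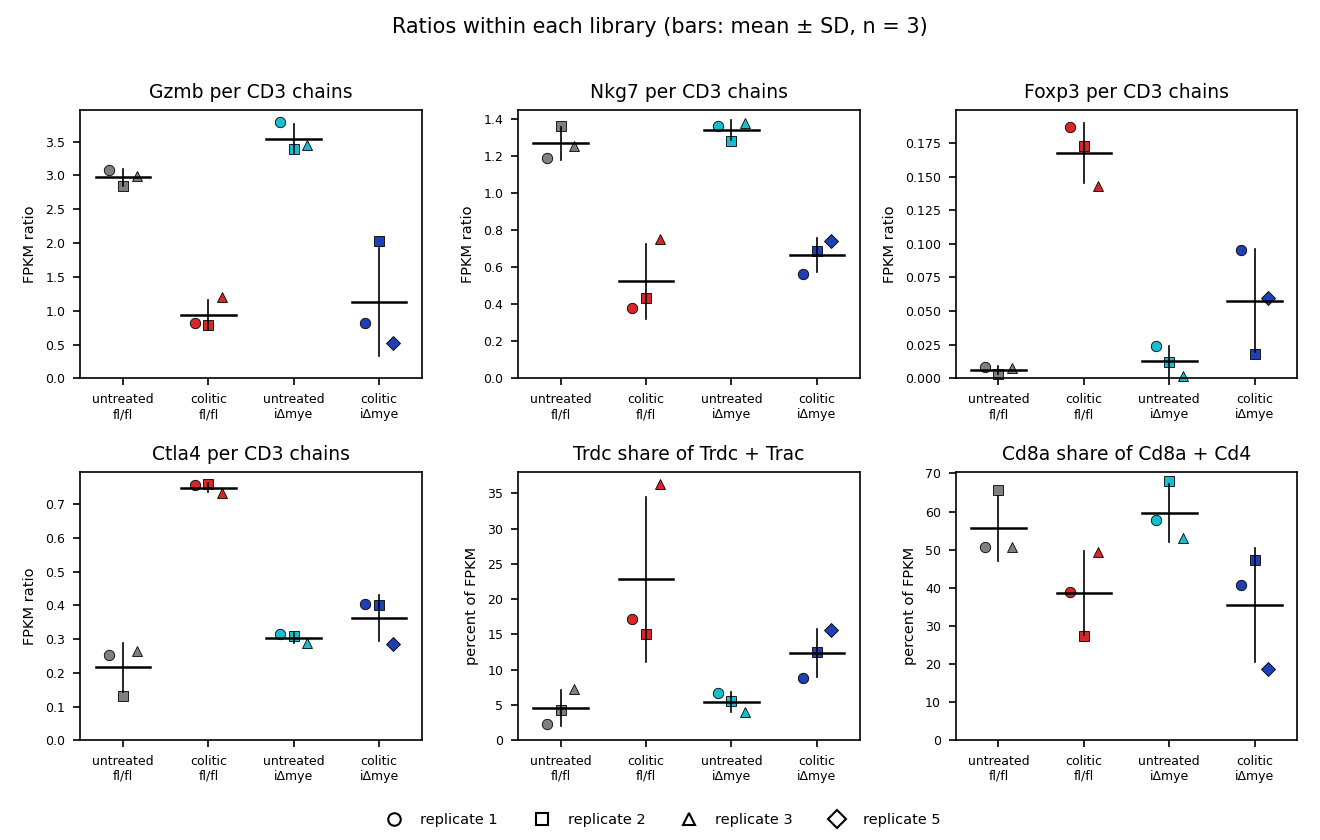
Ratios within each library, from FPKM: Gzmb, Nkg7, Foxp3 and Ctla4 over the sum of the 4 CD3 chains, Trdc as a percentage of Trdc plus Trac, and Cd8a as a percentage of Cd8a plus Cd4. Points are libraries with the symbol giving the replicate, horizontal lines are means and vertical lines the SD (n = 3). Gzmb and Nkg7 per CD3 are lower in both colitic groups, and Ctla4 and Foxp3 per CD3 are higher in the colitic Tmem173fl/fl libraries than in the colitic Tmem173iΔmye ones.

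Other genes of T and NK cells were described from lists of 99 further genes, of which 92 were in the table and 90 were tested. With DSS in Tmem173fl/fl mice 22 of the 90 were called higher, beside 14.9% of all genes, and 6 lower, beside 7.61%, with a median difference of 0.35 beside 0.03 over all genes. Of 12 genes of homing and recirculation 4 were called higher and 8 were not called, with a median difference of 0.54. Among those 4, the lymph node homing receptor Ccr7 rose by 2.72, the egress receptor S1pr1 by 2.34 and the interleukin-7 receptor Il7r by 2.45 as log2 differences (edgeR adjusted p 0.000453, 8.72e-06 and 0.000949). Myeloid, B or endothelial cells also express several of these. Of 17 T cell transcription factors 7 were called higher, 2 lower and 8 neither. Zbtb16 (PLZF), used by innate-like T cells, rose by 4.06, Maf by 1.85, Rora by 1.82 and Tcf7 by 1.38 (edgeR adjusted p 6.08e-07, 5.49e-05, 4.34e-05 and 0.0141). The level of Tcf7 overlapped between the groups. The 17 factors summed to 98.3 to 126 FPKM without and 109 to 138 FPKM with DSS. The CD3 chains summed to 10.004 to 13.1 and 4.61 to 12.6 FPKM in the same libraries. Which cells carried the RNA of these factors, Zbtb16 among them, cannot be told from whole colon. Bcl11b, a factor that T cells need to develop, fell by 1.2 (edgeR adjusted p 0.00243) and was named after its value was seen. Of 9 checkpoint and TNF receptors 2 were called, both higher. Tnfrsf9 (4-1BB) rose by 2.94 and Tnfrsf4 (OX40) by 1.28 (edgeR adjusted p 0.000427 and 0.0322). Of 23 signalling genes 5 were called higher and 2 lower. The adaptor Sla rose by 1.65 and the kinase Prkcq by 1.37, and the receptors Cd96 and Cd226 fell by 1.48 and 1.18 (edgeR adjusted p 0.00147, 0.00222, 0.00418 and 0.0390). Of 15 further NK and granzyme genes 1 was called lower, the granzyme Gzmk, which fell by 2.27, and 1 higher, Fcer1g, a receptor chain that myeloid cells also carry, which rose by 1.61 (edgeR adjusted p 0.000553 and 0.000822). Trdv4, a delta variable gene, had 1, 0 and 1 counts without and 7, 17 and 17 counts with DSS and was called higher (edgeR adjusted p 0.00610). It was 1 of 2 called among 4 tested genes of gamma delta T cells. The summed level of those 4 genes was 13.4 to 19.7 FPKM without and 16.2 to 18.8 FPKM with DSS, ranges that overlapped. Of 11 tested effector cytokines 1 was called higher and 1 lower. The cytokine Ifng was at 2.35, 1.02 and 1.94 CPM without and 0.108, 0.615 and 0 CPM with DSS, from 31, 15 and 31 and 2, 13 and 0 counts. The colitic libraries were all lower, with a difference of -2.65 (SE 0.80, edgeR adjusted p 0.0261). Il10, an inhibitory cytokine, rose by 1.55 (edgeR adjusted p 0.0371). Il17a, the cytokine of Th17 and gamma delta T cells, had 0, 1 and 0 counts without and 7, 11 and 0 counts with DSS and was not called (edgeR adjusted p 0.0883).

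Markers of other cells moved with DSS in the same Tmem173fl/fl libraries. Neutrophil genes were called higher for 9 of 9 and their summed level was 44.96 to 106 FPKM without and 592 to 982 FPKM with DSS. Of 12 macrophage and dendritic cell genes 9 were called higher and 1 lower (148 to 195 FPKM without and 487 to 614 FPKM with DSS). Fibroblast genes were called higher for 6 of 6 (144 to 173 FPKM without and 1017 to 1275 FPKM with DSS) and so were endothelial genes (14.7 to 16.1 and 69.2 to 96.1 FPKM). Of 10 epithelial genes 6 were called lower and 1 higher (6701 to 9206 FPKM without and 4087 to 6493 FPKM with DSS). The summed level of 12 genes of B cells and follicles was 55.7 to 88.7 FPKM without and 182 to 439.6 FPKM with DSS, with 1 called higher and 1 lower. In B cell genes colitic replicate 2 was the highest and replicate 3 the lowest of the colitic libraries, the same order as in the CD3 chains. Some neutrophil markers (S100a8, Cxcr2, Mmp8 and Ngp) were at 0 counts in at least 1 library, and of the other lists only Il23r of the innate lymphoid cells was. The pan-leukocyte gene Ptprc (CD45) was at 149.7, 121 and 142 CPM and 116, 175 and 75.5 CPM, a difference of -0.10 (edgeR adjusted p 0.797). The part of these shifts in the differences of T and NK cell genes was not tested.

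In Tmem173iΔmye mice none of the 36 genes was called with DSS. The differences furthest from 0 were again those of Foxp3 on the higher side and of Gzmb and Nkg7 on the lower side. The count was 0 of 36, beside 2.08% of all genes, and 4 genes had an unadjusted edgeR p under 0.05, beside 15.6% of all genes. DESeq2 called 1, Nkg7, beside 4.72% of all genes. The untreated and colitic libraries of this comparison are all different from those of the Tmem173fl/fl comparison. The median log2 difference of the 36 genes was -0.05, beside 0.02 over all genes, and it moved from -0.77 without colitic replicate 1 to 0.31 without colitic replicate 5. On leaving out each library, the share of all genes called moved from 0.212% without untreated replicate 2 to 6.09% without colitic replicate 5. Gzmb was at 33.9, 76.9 and 49.4 CPM in untreated Tmem173iΔmye libraries and 14.1, 27.2 and 2.91 CPM in replicates 1, 2 and 5 of the colitic ones. The groups did not overlap, colitic replicate 5 was the lowest, and the difference was -1.86 (SE 0.60, edgeR adjusted p 0.166). Without replicate 5 it was -1.35 and passed the threshold (edgeR adjusted p 0.0402). Nkg7 was at 7.77, 18.5 and 12.6 CPM and 6.20, 5.85 and 2.61 CPM. Again the groups did not overlap, with a difference of -1.41 (SE 0.42, edgeR adjusted p 0.127). These were the 2 genes of the 36 without overlap, beside 21.5% of all genes. Gzma was at 9.16, 34.1 and 15.6 CPM and 8.05, 27.4 and 1.94 CPM. Here colitic replicate 2 lay high, above 2 of the untreated libraries, and the difference was -0.65 (edgeR adjusted p 0.730). Prf1 was at 2.43, 5.03 and 3.49 CPM and 2.64, 2.36 and 0.668 CPM. The groups overlapped, with a difference of -0.95 (edgeR adjusted p 0.424).

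Foxp3 in Tmem173iΔmye mice was at 0.607, 0.778 and 0.0601 CPM without and 4.56, 0.684 and 0.911 CPM with DSS, from 10, 13 and 1 and 64, 11 and 15 counts. Only colitic replicate 1 reached the range of the colitic Tmem173fl/fl libraries, and the difference of 2.06 (SE 0.88, edgeR adjusted p 0.293) was not called. Il2ra was at 1.64, 3.59 and 2.10 CPM and 9.26, 4.17 and 2.31 CPM, with a difference of 1.09 (edgeR adjusted p 0.353). Ctla4 was at 4.55, 11.4 and 6.67 CPM and 11.3, 8.71 and 2.55 CPM, a difference of -0.01 (edgeR adjusted p 0.997). The groups overlapped in both genes, and colitic replicate 5 had the lowest colitic value in both. Gata3 was at 0.910, 1.86 and 0.842 CPM and 3.06, 4.11 and 1.40 CPM. Its groups overlapped through replicate 5, with a difference of 1.24 (edgeR adjusted p 0.281). Tbx21 was at 2.73, 4.67 and 4.27 CPM and 4.49, 1.62 and 0.546 CPM, a difference of -0.82 (edgeR adjusted p 0.580). Replicate 5 again had the lowest value.

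Trdc was at 1.27, 3.41 and 1.32 CPM in untreated and 3.85, 3.92 and 1.94 CPM in colitic Tmem173iΔmye libraries, a difference of 0.69 (SE 0.49, edgeR adjusted p 0.562). Untreated replicate 2 lay within the colitic range. Trac was at 4.31, 14.0 and 7.76 CPM and 9.69, 6.60 and 2.55 CPM, and Cd3e at 7.04, 15.3 and 9.62 CPM and 17.5, 10.8 and 3.64 CPM. Both groups spread widely, with differences of -0.47 and -0.01 (edgeR adjusted p 0.719 and 0.998). Cd3g was at 5.40, 17.6 and 11.4 CPM and 10.8, 9.08 and 4.25 CPM, with a difference of -0.51 (edgeR adjusted p 0.650). Cd8a was at 13.3, 31.1 and 19.4 CPM and 22.8, 14.2 and 1.15 CPM, the last from 19 counts in replicate 5. That library lay far below the others, and the difference was -0.75 (95% interval -2.34 to 0.85, edgeR adjusted p 0.680). Cd8b1 was at 3.70, 9.70 and 7.69 CPM and 6.13, 2.55 and 0.850 CPM, a difference of -1.16 (edgeR adjusted p 0.408). Cd4 was at 10.8, 16.3 and 19.1 CPM and 36.6, 17.6 and 5.58 CPM, a difference of 0.37 (edgeR adjusted p 0.791). In the coreceptors too replicate 1 was the highest and replicate 5 the lowest of the colitic libraries. Ccl5 was at 19.7, 76.9 and 61.7 CPM and 26.1, 39.3 and 7.10 CPM, a difference of -1.13 (edgeR adjusted p 0.387). Ncr1 was at 0.971, 1.08 and 0.240 CPM and 1.14, 0.622 and 0.0607 CPM, from 16, 18 and 4 and 16, 10 and 1 counts. Its difference of -0.35 (edgeR adjusted p 0.891) had an interval of -2.23 to 1.54. The differences of the other genes ran from -0.68 in Cd247 to 0.40 in Klrd1, and none was called.

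Relative to the CD3 chains, Gzmb stood at 3.79, 3.39 and 3.45 without DSS and 0.817, 2.03 and 0.529 with DSS in Tmem173iΔmye libraries, and Nkg7 at 1.37, 1.28 and 1.38 and 0.564, 0.688 and 0.745. Both were lower in each colitic library, replicate 5 included. Of the 32 genes, 5 (Cd8a, Cd8b1, Gzmb, Prf1 and Nkg7) had ratios lower in every colitic library, beside 0.904% of all genes, and 4 (Trdc, Klrd1, Gata3 and Il2ra) had ratios higher, beside 8.84% of all genes. The Ctla4 ratio was 0.314, 0.310 and 0.287 without and 0.405, 0.402 and 0.285 with DSS. These ranges overlapped, since replicate 5 lay just below the untreated libraries. Of the 90 further T and NK cell genes, 1 was called, Zbtb16, which rose from 2.37, 6.41 and 3.49 CPM to 16.96, 27.8 and 12.5 CPM, a log2 difference of 2.22 (edgeR adjusted p 0.0264). Ifng was at 1.09, 2.81 and 1.08 CPM without and 0.499, 1.74 and 0.182 CPM with DSS (edgeR adjusted p 0.561), and Il17a had 0, 0 and 0 and 0, 1 and 4 counts (edgeR adjusted p 0.402). Of other cells in these libraries, neutrophil genes were called higher for 5 of 9 (44.7 to 82.7 FPKM without and 237 to 333 FPKM with DSS), macrophage and dendritic cell genes for 2 of 12 (145 to 234 and 215 to 396 FPKM) and fibroblast genes for 1 of 6 (146 to 179.6 and 296 to 416 FPKM), and 0 of 10 epithelial genes were called. Their part in these values was not tested.

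Whether the DSS difference itself depended on genotype was tested by the interaction over all 12 libraries. The count called was 0 of the 36 genes, beside 2.55% of all genes, a share that moved from 1.11% without untreated Tmem173fl/fl replicate 1 to 7.17% without colitic Tmem173iΔmye replicate 1 on leaving out each library. At an unadjusted edgeR p under 0.05 the count was 0, beside 18.1% of all genes, and DESeq2 called 0, beside 5.66% of all genes. The interaction was 0.36 for Gzmb (95% interval -1.24 to 1.97), -2.18 for Foxp3 (-4.74 to 0.39), -1.23 for Trdc (-2.66 to 0.20) and -1.34 for Ctla4 (-2.93 to 0.25) on the log2 scale. For 20 of the 36 genes the interval held both -1 and 1, so differences of the size of the fold limit were not detectable in either direction. For Zbtb16, called in both genotypes, the interaction was -1.77 (edgeR adjusted p 0.0643). A gene called with DSS in Tmem173fl/fl mice and not in Tmem173iΔmye mice is therefore not shown to differ between genotypes.

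In untreated colon none of the 36 genes was called between the genotypes. The count called was 0 of 36, beside 0% of all genes, and 0 had an unadjusted edgeR p under 0.05, beside 2.99% of all genes. DESeq2 called 0, beside 0.0124% of all genes. The groups overlapped for each of the 36 genes, while they did not for 7.35% of all genes. For 22 genes the 95% interval lay within a log2 difference of 1 either way, among them Gzmb at 0.13 (-0.41 to 0.66), Thy1 at 0.05 (-0.39 to 0.50) and Cd8a at -0.02 (-0.58 to 0.54). Untreated Tmem173iΔmye replicate 2 was the highest and replicate 1 the lowest of that group in the summed CD3 level, at 6.08, 15.5 and 9.82 FPKM in replicates 1 to 3. Relative to the CD3 chains, 4 of 32 genes (Cd2, Ctla4, Gzmb and Klrk1) were higher in every Tmem173iΔmye library, beside 2.08% of all genes, and Trac alone was lower, beside 0.917%. The Gzmb ratio was 3.09, 2.84 and 2.99 in Tmem173fl/fl and 3.79, 3.39 and 3.45 in Tmem173iΔmye libraries. That gap was small beside the one between untreated and colitic libraries.

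Among colitic mice, Trdc had the smallest p between genotypes of the 36 genes, without passing the adjusted threshold. This comparison shares the colitic libraries of each genotype with the DSS comparisons. Trdc was at 8.67, 5.40 and 9.94 CPM in colitic Tmem173fl/fl and 3.85, 3.92 and 1.94 CPM in colitic Tmem173iΔmye libraries. All Tmem173iΔmye values were below all Tmem173fl/fl ones, with a log2 difference of -1.31 (SE 0.38, edgeR adjusted p 0.0993). DESeq2 called it (adjusted p 0.0181), the only one of the 36, beside 6.72% of all genes. The count called by edgeR was 0 of 36, beside 2.81% of all genes, and 2 genes had an unadjusted p under 0.05, beside 20.2% of all genes. The other was Thy1, at 42.3, 40.5 and 32.8 CPM and 35.3, 16.99 and 19.9 CPM. Its groups overlapped, since Tmem173iΔmye replicate 1 lay within the Tmem173fl/fl range, and the difference of -0.68 (edgeR adjusted p 0.237) became -1.08 without that library (edgeR adjusted p 0.0298). The groups did not overlap for 1 of the 36 genes, Trdc, beside 26.8% of all genes. The median difference of the 36 genes was -0.13, beside 0.02 over all genes. It moved to -0.75 without Tmem173iΔmye replicate 1 and -0.47 without Tmem173fl/fl replicate 3, and to 0.38 without Tmem173fl/fl replicate 2 and 0.22 without Tmem173iΔmye replicate 5, on both sides of 0. The share of all genes called moved from 0.112% without Tmem173fl/fl replicate 1 to 6.61% without Tmem173iΔmye replicate 1, and was 0.295% with limma.

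For Foxp3, Il2ra and Ctla4 the colitic Tmem173iΔmye libraries spread widely. Foxp3 was at 5.91, 8.66 and 2.59 CPM in colitic Tmem173fl/fl and 4.56, 0.684 and 0.911 CPM in colitic Tmem173iΔmye libraries. Replicates 2 and 5 lay below each Tmem173fl/fl library and replicate 1 among them, and the difference of -1.49 (SE 0.74, edgeR adjusted p 0.298) became -2.86 without replicate 1 (edgeR adjusted p 0.0395). Ctla4 and Il2ra had differences of -0.97 and -1.0 (edgeR adjusted p 0.360 and 0.381), with intervals of -2.22 to 0.27 and -2.34 to 0.34. Relative to the CD3 chains, Ctla4 was at 0.756, 0.760 and 0.733 in colitic Tmem173fl/fl and 0.405, 0.402 and 0.285 in colitic Tmem173iΔmye libraries. The gap between the groups was wider than the spread within either. Foxp3 was at 0.187, 0.173 and 0.143 and 0.0951, 0.0184 and 0.0595 times the CD3 level and Il2ra at 0.264, 0.212 and 0.157 and 0.135, 0.0784 and 0.105. In both, every Tmem173iΔmye library was below every Tmem173fl/fl one, replicate 1 included. Of the 32 genes, 5 (Ctla4, Foxp3, Il2ra, Il2rb and Zap70) had ratios lower in every Tmem173iΔmye library, beside 5.65% of all genes, and 0 had higher ones, beside 2.24%. An exact permutation test (two-sided) of 3 against 3 such ratios could not give a p below 0.1, and none was run.

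Apart from Trdc and Thy1, no gene among the 36 had an unadjusted edgeR p under 0.05 between colitic genotypes. Cytotoxic genes had positive differences, 1.25 for Gzma, 0.47 for Gzmb, 0.41 for Nkg7 and 0.42 for Prf1 (edgeR adjusted p from 0.398 to 0.727). For Gzma, Tmem173iΔmye replicate 2 stood at 27.4 CPM, above all colitic Tmem173fl/fl libraries, and replicate 5 at 1.94 CPM, below them. Itgae had a difference of 0.70 (edgeR adjusted p 0.493), which became 1.15 and was called without replicate 5 (edgeR adjusted p 0.0415). The CD3 chains had a median difference of -0.03, and Cd4 and Cd8a differences of -0.22 and 0.14 (edgeR adjusted p 0.881 and 0.942). For 11 of the 36 genes the 95% interval held both -1 and 1, and for 0 it lay within them. Of the 90 further T and NK cell genes, 1 was called, Zbtb16, at 47.7, 58.7 and 55.4 CPM in Tmem173fl/fl and 16.96, 27.8 and 12.5 CPM in Tmem173iΔmye mice. The groups did not overlap, with a difference of -1.51 (SE 0.28, edgeR adjusted p 0.0317). Whether T cells or other cells carried this Zbtb16 RNA cannot be told from whole colon. Ifng was at 0.108, 0.615 and 0 and 0.499, 1.74 and 0.182 CPM (edgeR adjusted p 0.452), and Il17a had 7, 11 and 0 and 0, 1 and 4 counts (edgeR adjusted p 0.542). Beside these values, neutrophil markers were called lower in colitic Tmem173iΔmye mice for 5 of 9 genes (592 to 982 FPKM in Tmem173fl/fl and 237 to 333 FPKM in Tmem173iΔmye libraries), macrophage and dendritic cell markers for 2 of 12 (487 to 614 and 215 to 396 FPKM), fibroblast markers for 5 of 6 and endothelial markers for 2 of 6, and 1 of 10 epithelial genes was called higher. Their part in the differences of T and NK cell genes was not tested.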

How the data were processed

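Total colon RNA of 12 mice was sequenced. Per the submitters' processing notes, reads passed CASAVA 1.8 and fastp, were mapped with HISAT2 2.0.5 and counted with featureCounts 1.5.0-p3, and groups were compared with DESeq2 1.20.0. The authors deposited raw counts per gene and FPKM (counts scaled by length and depth) for each library, with coordinates on GRCm38. The table also has 25 columns of the authors' own comparisons (fold changes, p-values and group means), which were not used. Sample titles gave the group (WT or CRE, Control or DSS) and the number of each replicate.

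Counts were tested in R 4.3.3 with edgeR 4.0.16 (quasi-likelihood, TMM scaling, Benjamini-Hochberg adjustment over 24102 genes). Each pair of groups was fitted alone and the interaction with all 12 libraries. The standard error (SE) was the log2 difference divided by the square root of F, and 95% intervals used its t quantile. CPM used TMM library sizes and served within genes, and FPKM served between genes. No replicates agreed within sampling noise. P-values weigh a group difference against the spread between these mice, which edgeR moderates across genes. Sex is part of that spread where it was mixed within a group. Library values were given for called members and 14 genes that define T and NK classes, and other listed genes were named if called with a mean FPKM of at least 0.5, up to 4 per list. Some genes that this rule takes are not reported here. The members and lists were chosen with earlier results of these data known. Scripts were tested on simulated counts. Alternatives were other filters, scalings and thresholds, DESeq2 1.42.0, limma 3.58.1 on log2(FPKM + 0.1), leaving out each library, and a block for the replicate number.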

Additional observations from a re-analysis of the deposited data

How the results depend on the processing

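In Tmem173fl/fl mice the count of T and NK cell genes called with DSS was 9, beside 22.5% of all genes. It stayed within 1.5 times of that under all settings but 1, the joint fit of all 12 libraries. That fit gave 5, beside 21.3% of all genes. Leaving out each library gave 7 to 10, beside 19.8 to 23.1% of all genes. Trdc, Gzmb, Nkg7, Foxp3 and Il2ra were called under every setting run and Gzma under all but the joint fit. Ccl5 was lost in the joint fit, with library totals only and without colitic replicate 3. Prf1 was also called under some settings, among them RLE size factors, DESeq2 and no filter on low values. In Tmem173iΔmye mice the count of 0 became 4 with an unadjusted p and the fold limit (beside 9.10% of all genes), 2 without the filter (Gzmb and Nkg7, beside 3.29%), 1 with DESeq2 (beside 4.72%), 1 in the joint fit (beside 4.07%, both Nkg7) and 0 to 1 on leaving out each library (1, Gzmb, without colitic replicate 5, beside 6.09%). Between colitic genotypes the count of 0 became 1 with an unadjusted p (beside 10.4% of all genes) and 1 with DESeq2 (beside 6.72%, both Trdc), and 0 to 2 on leaving out each library (2, Foxp3 and Thy1, without colitic Tmem173iΔmye replicate 1, beside 6.61%, and 1, Itgae, without replicate 5, the only library of this comparison with Xist above 1 FPKM, beside 2.11%). For the interaction it was 0 to 1 on leaving out each library (1, Thy1, without colitic Tmem173iΔmye replicate 1, beside 7.17% of all genes), and between untreated genotypes 0 throughout. No called difference changed sign under any setting run. The cause of these changes was not tested.

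Scaling by library totals moved the median of all genes with DSS in Tmem173fl/fl mice from 0.03 to 0.16. Fits with the replicate number as a block called 9 genes with DSS in Tmem173fl/fl mice (Prf1 in, Gata3 out, beside 20.5% of all genes) and 1 in Tmem173iΔmye mice (Gzmb, beside 5.68%). They called 0 between colitic genotypes (beside 3.52% of all genes), 0 for the interaction (beside 2.45%) and 0 between untreated genotypes (beside 0.390%). Deviations of same-numbered libraries had correlations from -0.19 to 0.21, of both signs. Same-numbered untreated libraries also matched in sex by Xist, which was abundant in replicate 3 of both genotypes and near 0 in replicates 1 and 2. Depth limits genes with few counts, among them Foxp3, Ncr1, Ifng, Il17a and Trdv4.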

Other observations

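Variable gene segments of the T cell receptor were also counted. Of 128 alpha segments in the table, 23, 33 and 24 had a count in untreated Tmem173fl/fl libraries and 21, 39 and 12 in colitic ones, and 13, 32 and 17 in untreated and 28, 18 and 8 in colitic Tmem173iΔmye libraries. Their summed counts ran from 10 in colitic Tmem173iΔmye replicate 5, which also had the lowest summed CD3 level, to 92 in colitic Tmem173fl/fl replicate 2. Of 35 beta segments, 13 to 19 had a count in each library. The 6 delta segments summed to 2, 0 and 1 counts in untreated and 8, 18 and 24 counts in colitic Tmem173fl/fl libraries. In Tmem173iΔmye libraries they summed to 3, 6 and 4 counts without and 2, 17 and 3 counts with DSS. The 1 gamma segment in the table had 6, 17 and 19 counts in untreated and 15, 12 and 10 in colitic Tmem173fl/fl libraries. Its counts in Tmem173iΔmye libraries were 12, 17 and 14 without and 14, 7 and 0 with DSS.

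Of 8 genes of innate lymphoid cells, 2 were called higher and 2 lower with DSS in Tmem173fl/fl mice, and of 7 mast cell genes 3 were called higher. The summed mast cell level was 17.2 to 26.9 FPKM in untreated and 12.4 to 26.8 FPKM in colitic Tmem173fl/fl libraries, and that of smooth muscle genes 993 to 1360 and 902 to 1080 FPKM. Of 6 genes of enteric neurons and glia, 5 were called higher (11.2 to 14.1 and 31.95 to 35.1 FPKM). Cd8b1 took 42.3, 47.1 and 40.2% of the summed FPKM of Cd8b1 and Cd8a in untreated and 52.3, 42.8 and 35.0% in colitic Tmem173fl/fl libraries, ranges that overlapped.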
